A study of Drosophila melanogaster with 7 samples.

Results

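In Drosophila melanogaster S2 cells, a cultured line derived from embryos, 921 stretches of the genome carried called regions of all 5 chromatin proteins WOC, ROW, Z4, Dsk2 and HP1c. They were selected from the called intervals themselves: the intervals of the 5 lists were pooled, any that shared at least 1 bp were chained, and a merged region was kept when all 5 lists contributed to it. The 921 regions, called members here, were 7.06% of the 13044 merged regions. The study used chromatin immunoprecipitation followed by sequencing (ChIP-Seq), with 1 library for each protein and 2 input libraries of chromatin without immunoprecipitation. All samples came from S2 cells with no treatment or genotype given in the labels. The antibodies were polyclonal, raised in rabbit against WOC, ROW, Dsk2 and HP1c and in guinea pig against Z4. Per the labels, HP1c and Dsk2 shared an input library, and the 3 zinc-finger proteins shared the second.

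HP1c is a member of the heterochromatin protein 1 family that lies mostly in euchromatin, and it binds the zinc-finger proteins WOC and ROW. Dsk2 is a ubiquilin, a protein with a ubiquitin-like and a ubiquitin-binding domain best known for handing ubiquitinated proteins to the proteasome. Z4, also named putzig, is a zinc-finger protein of the interbands of polytene chromosomes, the decondensed stretches that hold many promoters of active genes.

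Each list gives only an arm, a start and an end in the dm3 build, with no height, score or read number, so the depth behind a region is unknown. No replicate was analysed here. Membership rests on the intervals, so widths, overlaps and order are described without a test. The exact (Clopper-Pearson) 95% intervals given below cover the counting of regions only and treat regions as independent.

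The members held 5953 of the 29798 intervals of the 5 lists (19.98%) and 22.2% of the merged length, 1477 kb in all. HP1c had the largest share of its list in them, 1111 of 2711 intervals (41.0%, interval 39.1 to 42.9%). Dsk2 followed with 1130 of 4748 intervals (23.8%) and WOC with 1188 of 5849 (20.3%). Z4 had 1353 of 7491 intervals there (18.1%) and ROW 1171 of 8999 (13.0%). The shares fall as the lists grow longer, and each list, whatever its length, supplies at least 1 interval to each member by the rule.

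Many members were of the simplest composition. In 434 members (47.1%) each list supplied exactly 1 interval, the median was 6 intervals, and 72 members (7.82%) held 10 or more. HP1c was present as a single interval in 778 members (84.5%) and Dsk2 in 773 (83.9%). WOC was single in 746 (81.0%), while ROW was single in 684 (74.3%) and Z4 in 678 (73.6%).

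The proteins filled the members unequally. HP1c covered a median of 149 bp, or 11.8% of a member's width. Dsk2 covered a median of 470 bp (42.7%) and WOC 447 bp (42.7%). ROW covered a median of 669 bp (62.2%) and Z4 714 bp (67.7%). HP1c was thus the smallest component of the typical member and Z4 with ROW the largest. Individual HP1c intervals in members had a median width of 136 bp with quartiles of 44 and 275 bp, against 116 bp for HP1c intervals elsewhere. For Dsk2 the medians were 414 bp in members and 174 bp elsewhere, and for WOC 373.5 and 170 bp. In ROW they were 474 and 226 bp, and in Z4 531 and 335 bp. A wide interval meets other lists more easily, so the rule itself favours wide intervals in members. The part of the rule in these differences was not tested.

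A chain of overlaps need not have one site in common. A base covered by all 5 proteins existed in 447 members (48.5%, interval 45.3 to 51.8%). In another 422 members (45.8%) at most 4 proteins met over one base, in 51 members (5.54%) at most 3, and in 1 member at most 2. Where it existed, the longest stretch common to all 5 had a median of 101 bp, with quartiles of 42 and 181 bp, and ranged from 1 to 1152 bp. The common bases made up a median of 6.68% of the member's width. The middle of the longest common stretch lay a median of 30.9% of the way from the member's centre to its edge, with quartiles of 16.4 and 52.8%.

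ROW was the protein most often missing from the common site. A base common to HP1c, Dsk2, WOC and Z4 was present in 797 members (86.5%, interval 84.2 to 88.7%), and one common to HP1c, Dsk2 and WOC in 862 (93.6%). A base common to Dsk2, WOC, ROW and Z4 was present in 601 (65.3%, interval 62.1 to 68.3%). Merged regions that held the 4 other proteins without any ROW numbered 201, and 172 of them (85.6%) had a base common to their 4 proteins.

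The pairs of proteins that include ROW, other than ROW with Z4, overlapped directly less often than the rest. Dsk2 and WOC shared a base in 915 members (99.3%) and ROW and Z4 in 900 (97.7%). Z4 also overlapped WOC in 897 (97.4%) and Dsk2 in 891 (96.7%), so Z4 touched both of these pairs. HP1c overlapped Dsk2 in 890 members (96.6%), WOC in 874 (94.9%) and Z4 in 841 (91.3%). The 3 remaining pairs all involved ROW: ROW shared a base with Dsk2 in 712 members (77.3%), with WOC in 694 (75.4%) and with HP1c in 539 (58.5%, interval 55.3 to 61.7%). ROW was called against the same input as WOC and Z4 and against another than Dsk2 and HP1c, and the part of the input in these shares was not tested. HP1c shared a base with all 4 other lists in 479 members (52.0%), with 3 of them in 358 (38.9%), with 2 in 70 (7.60%) and with 1 in 14 (1.52%).

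**Figure D1:**
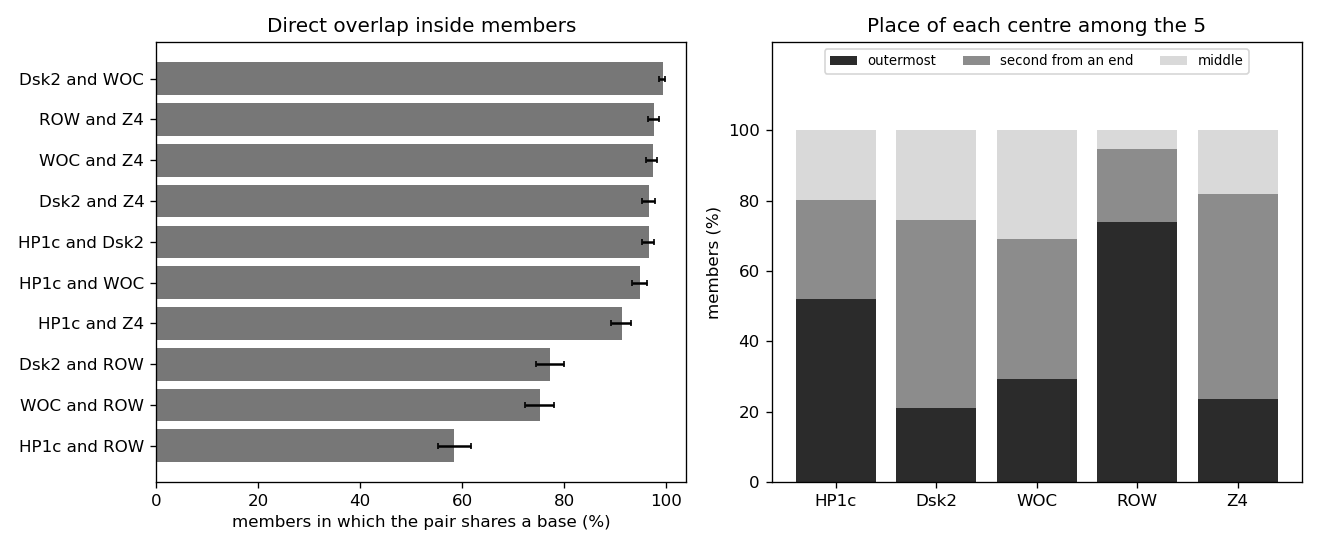
Left, the percent of the 921 members in which 2 lists share at least 1 base, with exact 95% intervals as error bars; HP1c with ROW is lowest at 58.5%. Right, the percent of members in which the centre of a list is outermost, second from an end or in the middle among the 5 centres; ROW is outermost in 74.0% and in the middle in 5.43%.

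Containment showed the same arrangement in bases. The median HP1c complement lay entirely inside Dsk2 intervals (100% of its bases), and in 668 members (72.5%) every HP1c base was also a Dsk2 base. The median was also 100% for HP1c bases inside WOC and inside Z4, but 21.9% for HP1c bases inside ROW. These medians count each member once, whatever its HP1c length. With the HP1c bases of all members pooled, 85.18% lay inside Dsk2, 75.02% inside WOC, 60.06% inside Z4 and 48.11% inside ROW. The order was kept, but the gap between Z4 and ROW was much smaller than in the medians. A median of 89.1% of Dsk2 bases were WOC bases and 94.5% of WOC bases were Dsk2 bases. ROW and Z4 covered each other less fully, with medians of 66.1% of ROW bases inside Z4 and 71.0% of Z4 bases inside ROW. HP1c occupied a median of 29.7% of the Dsk2 bases and 2.57% of the ROW bases.

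The position of ROW beside HP1c was read at the HP1c centre, the mean position of the bases that HP1c covered in the member. ROW covered the HP1c centre in 387 members (42.0%, interval 38.8 to 45.3%). In 376 members (40.8%) ROW lay on one side of it only, and in 158 (17.2%) ROW lay on both sides without covering it. Dsk2 covered the HP1c centre in 808 members (87.7%), WOC in 777 (84.4%) and Z4 in 676 (73.4%). In the 382 members where HP1c and ROW shared no base, a median of 120 bp separated the nearest edges of their intervals, with quartiles of 77 and 174.75 bp and a range of 0 to 936 bp. ROW was to the right of HP1c in 450 of 921 members (48.9%, interval 45.6 to 52.1%), so neither direction along the arms was preferred beyond counting error.

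When every member was turned so that the ROW centre lay to the right of HP1c, ROW coverage was 42.0% at the HP1c centre and highest 400 bp to the right, at 67.3%. It was 31.5% at 400 bp to the left. The turning itself puts ROW on the right, and the other proteins are not free of it. In the 382 members where HP1c and ROW shared no base, the chaining rule needs another list to reach towards ROW. Z4 shared a base with ROW in 97.7% of members, so part of any Z4 lean to that side is built in. The size of this part was not tested. Z4 coverage was 24.8% at 400 bp on the left and 51.2% at 400 bp on the right. Dsk2 coverage was 16.5% on the left and 24.6% on the right at this distance, and WOC coverage 17.3% and 24.2%. HP1c coverage was 7.06% and 5.54%. Z4 thus leaned to the ROW side more than Dsk2 and WOC did.

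**Figure D2:**
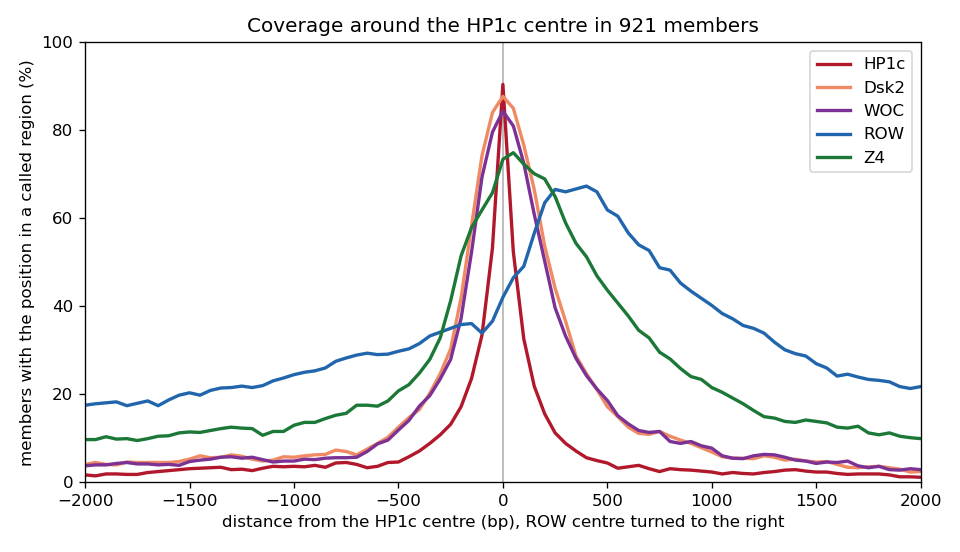
Percent of the 921 members in which a position lies in a called region of each protein, against the distance in bp from the HP1c centre, with the ROW centre turned to the right. HP1c, Dsk2 and WOC are highest at 0 bp, Z4 at 50 bp and ROW at 400 bp to the right, where it reaches 67.3%.

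The side on which a centre fell was also counted member by member, from the same centres and chains. ROW and Z4 had their centres on the same side of HP1c in 746 of 920 members (81.1%, interval 78.4 to 83.6%). ROW and Dsk2 were on the same side in 577 of 921 members (62.6%), and ROW and WOC in 583 of 918 (63.5%). Dsk2 and WOC were on the same side of HP1c in 802 of 918 (87.4%). Where both centres were at least 100 bp from HP1c, the share was 516 of 562 (91.8%) for ROW and Z4, 269 of 367 (73.3%) for ROW and Dsk2, 314 of 429 (73.2%) for ROW and WOC and 352 of 358 (98.3%) for Dsk2 and WOC. For Z4 it was 85.6% with Dsk2 and 85.8% with WOC. These shares are not independent of one another, since overlapping intervals have neighbouring centres. The chaining rule also sets a part of them, as for the turned coverage.

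Distances between centres gave a closest pair and a farthest group, with pairs between them whose intervals partly overlapped. Dsk2 and WOC were closest, with a median of 33 bp (interval of the median 28.5 to 37.5 bp) and centres within 100 bp of each other in 746 members (81.0%). HP1c was a median of 81.5 bp from Dsk2 and 102 bp from WOC, and their intervals of the median, 73.3 to 90.5 and 89.5 to 113.5 bp, overlapped slightly. Dsk2 and WOC lay 109.5 and 119.5 bp from Z4, HP1c lay 167 bp from Z4, and ROW lay 176 bp from Z4. The intervals for HP1c to WOC, Dsk2 to Z4 (96 to 128.5 bp) and WOC to Z4 (103.5 to 132.5 bp) overlapped. Those for HP1c to Z4 (149 to 185.5 bp) and ROW to Z4 (163 to 189 bp) also overlapped. Pairs with overlapping intervals are not ranked against each other. ROW was farthest from the other 3, at 292 bp from WOC, 297.5 bp from Dsk2 and 312 bp from HP1c. These 3 medians had overlapping intervals and are not ranked. Among the 434 members with 1 interval a list, the same distances were shorter but kept ROW at the far end, with 25 bp between Dsk2 and WOC and 243 bp between HP1c and ROW.

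The order of the 5 centres along the DNA was read with mirror images counted as one, because the regions carry no strand. In 912 members no 2 centres coincided, and 53 of the 60 possible orders occurred. The most frequent was HP1c-Dsk2-WOC-Z4-ROW, with 134 members (14.7%). Next came ROW-Z4-HP1c-Dsk2-WOC with 86 members (9.43%) and HP1c-WOC-Dsk2-Z4-ROW with 83 (9.10%). All 3 had Dsk2 beside WOC and Z4 beside ROW, with ROW at an end. Dsk2 and WOC were neighbours in 669 members (73.4%), ROW and Z4 in 591 (64.8%), and HP1c and Dsk2 in 478 (52.4%). Dsk2 and ROW were neighbours least often, in 159 members (17.4%).

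Of the 2 outermost places in each member, ROW held one in 682 members (74.0%, interval 71.1 to 76.9%) and HP1c one in 480 (52.1%). WOC was outermost in 269 (29.2%), Z4 in 217 (23.6%) and Dsk2 in 194 (21.1%). The middle place was taken by WOC in 285 members (30.9%), Dsk2 in 235 (25.5%), HP1c in 183 (19.9%), Z4 in 168 (18.2%) and ROW in 50 (5.43%). ROW intervals were also wide, with a median of 474 bp in members, and the part of width in the place of the ROW centre was not tested. The edges of the members were also mostly set by ROW, which reached at least 1 edge in 737 members (80.0%) and both in 243 (26.4%). Z4 reached an edge in 316 (34.3%), Dsk2 in 221 (24.0%), WOC in 141 (15.3%) and HP1c in 108 (11.7%).

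Leaving out 1 list at a time showed which intervals held a chain together. Without HP1c the remaining intervals fell apart in 15 members (1.63%), without WOC in 27 (2.93%) and without Dsk2 in 58 (6.30%). Without ROW they fell apart in 234 members (25.4%) and without Z4 in 281 (30.5%). The ROW value depended on the setting: 74.6% of members stayed 1 chain without ROW, but 96.3% of those with 1 interval of each list did, and 95.0% with every interval set to 200 bp. The 2 kinds of break differed. Without ROW the other 4 proteins still met in a single chain in all but 29 members (3.15%), so that what broke off were mostly additional intervals. Without Z4 the other 4 no longer met in a single chain in 170 members (18.5%), against 19 (2.06%) without Dsk2, 9 (0.977%) without WOC and 7 (0.760%) without HP1c. Under the main rule Z4 was therefore the list whose loss most often separated the other 4. This measure, and the breaks without Z4, were not recomputed under the other settings.

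The weakest link of each chain was measured as the highest overlap minimum at which all 5 lists would still be joined. Its median was 84 bp, 406 members (44.1%) would have held at 100 bp, and 97 (10.5%) rested on 10 bp or less. Just inside the rule, 26 members rested on a single base, and in 14 of them the whole HP1c signal was an interval 1 bp wide. The first of these by position was on 2L from 10356146 to 10356973, where the HP1c interval was the single base 10356680, inside Dsk2 (10356594 to 10356885), WOC (10356315 to 10356887) and Z4 (10356557 to 10356973). ROW there ended at 10356388 and met only WOC. The next 2, on 2L from 10403765 to 10404276 and from 18442463 to 18443927, also had HP1c intervals of 1 bp. Across all members, 233 had under 50 bp of HP1c in all.

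Just outside the rule, the 3 nearest merged regions of 4 lists were listed, and each missed the fifth by 1 bp. The listing stopped at 3, so more regions may have this gap. On 2R from 10250266 to 10250674 and on 3R from 21707012 to 21707872 the missing protein was ROW, with intervals of 39 and 329 bp, and on 3R from 5338664 to 5339370 it was HP1c, with an interval of 105 bp. Of the 201 merged regions that lacked only ROW, 38 (18.9%) had a ROW interval within 100 bp and 100 (49.8%) within 500 bp. Of the 1299 that lacked only HP1c, 21 (1.62%) had an HP1c interval within 100 bp and 91 (7.01%) within 500 bp. Regions lacking only ROW were near misses more often than those lacking only HP1c. This difference was not tested, and the ROW list (8999 intervals) is longer than the HP1c list (2711).

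Members were wide for merged regions. Their median width was 1160 bp (interval of the median 1083 to 1219 bp), the quartiles were 755 and 1869 bp, and the range was 177 to 15981 bp. Merged regions of 4 lists had a median of 761 bp and those of 3 lists 472 bp. Chaining ties width to the number of lists, so this is a property of the rule as much as of the chromatin. The share of merged regions that were members rose from 0.779% at widths up to 500 bp to 11.3% between 500 and 1000 bp, 27.4% between 1000 and 2000 bp, 41.7% between 2000 and 4000 bp and 66.2% above.

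The inner layout also varied with width. A base common to all 5 existed in 33.5% of the 313 members of 500 to 1000 bp, in 45.5% of the 336 of 1000 to 2000 bp, in 76.9% of the 160 of 2000 to 4000 bp and in 88.9% of the 45 wider ones. Direct overlap of HP1c with ROW rose over the same classes from 41.5% to 58.6%, 86.9% and 97.8%. The narrowest class, with 67 members up to 500 bp, stood at 38.8% and 43.3%. Wider members also held more intervals, with a median of 5 at 500 to 1000 bp and 12 above 4000 bp. More covered bases make a shared base easier to meet, and the part of this in the rise was not tested. Members with a common base had a median width of 1521 bp and 233 bp of HP1c, against 970 bp and 90 bp in members without one. The spans between outermost centres had medians with overlapping intervals, 408 bp (interval of the median 375 to 458 bp) and 416.5 bp (389 to 437.5 bp).

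**Figure D3:**
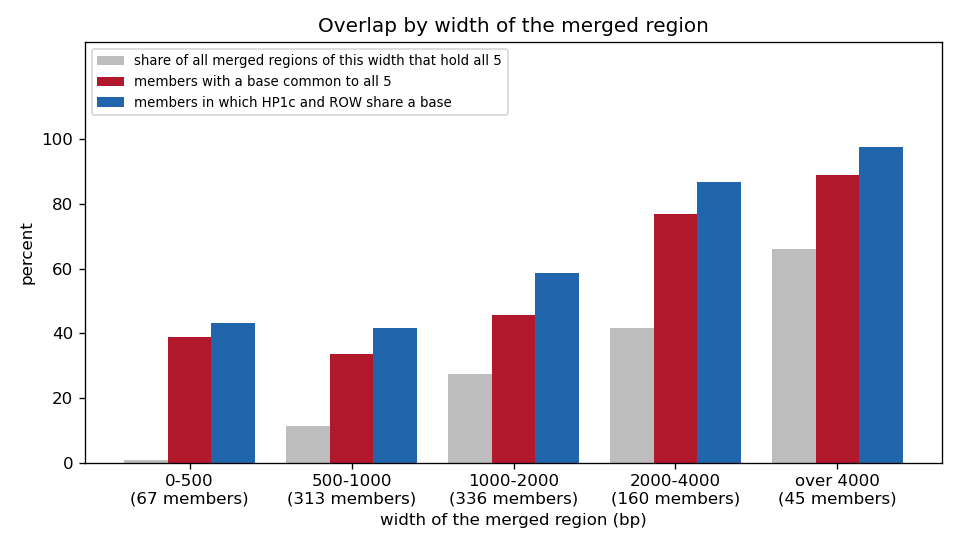
Percent of all merged regions of a width class that hold all 5 proteins (grey), and percent of the members in that class with a base common to all 5 (red) or with HP1c and ROW sharing a base (blue), against width in bp. The red bars rise from 33.5% at 500 to 1000 bp to 88.9% above 4000 bp.

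The closest relatives of the members were the 1299 merged regions with Dsk2, WOC, ROW and Z4 but no HP1c. A base common to these 4 proteins existed in 567 of them (43.6%, interval 40.9 to 46.4%), against 601 of 921 members (65.3%). Their median width was 818 bp, below that of the members. In each of the 4 width classes up to 4000 bp the share with a base common to the 4 was higher in the members. It was 49.3% against 27.8% up to 500 bp, 50.8% against 40.3% from 500 to 1000 bp, 65.2% against 50.3% from 1000 to 2000 bp and 91.9% against 63.5% from 2000 to 4000 bp. The difference was not tested, since overlap chose both sets.

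The contacts between these proteins differed as well, and which of the 6 pairs differed most depended on the width. Over all widths the contacts of ROW with Dsk2 and WOC stood out. In the regions without HP1c, ROW shared a base with Dsk2 in 57.4% and with WOC in 57.8%, against 77.3% and 75.4% in members. The other 4 pairs differed by less, with 92.9% against 96.7% for Dsk2 with Z4 as the widest gap among them. ROW with Z4 went the other way, at 99.5% against 97.7%. Up to 500 bp, ROW shared a base with Dsk2 in 34.6% against 71.6% and with WOC in 38.9% against 70.1%. ROW with Z4 again went the other way there, at 97.5% against 86.6%. Between 2000 and 4000 bp the contacts of Z4 with Dsk2 and WOC differed most. They were 77.9% against 96.9% for Dsk2 with Z4 and 78.8% against 96.9% for WOC with Z4. The Dsk2 contact with ROW in this class was 89.4% against 96.25%. The outward position of ROW was present without HP1c as well. Among the centres of these 4 proteins ROW was outermost in 1077 of 1299 regions (82.9%, interval 80.8 to 84.9%) and in 733 of 921 members (79.6%, interval 76.8 to 82.1%). The median distance between the Dsk2 and ROW centres was 237 bp without HP1c and 297.5 bp in members, while that between Dsk2 and WOC was 33.5 and 33 bp. At matched width the Dsk2 to ROW distance did not keep this direction. It was 178.25 bp without HP1c and 88.5 bp in members up to 500 bp wide, 226 and 229.5 bp from 500 to 1000 bp, 332 and 386.5 bp from 1000 to 2000 bp, and 562 and 549 bp from 2000 to 4000 bp.

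The members with the longest common stretch were found on 5 arms. First was the member on 3R from 19157162 to 19173142, in which all 5 proteins covered 19160552 to 19161703, 1152 bp. It held 7 HP1c, 4 Dsk2, 7 WOC, 2 ROW and 9 Z4 intervals and was also the widest member. Second was 3L from 625365 to 630605, with 1082 bp in common (626903 to 627984). On 2R from 7082884 to 7094260 the common stretch was 865 bp. The fourth, on X from 20067128 to 20068486, differed in being simple: 1 interval of each list, of 841 bp for HP1c, 908 bp for Dsk2, 978 bp for WOC, 1344 bp for ROW and 1108 bp for Z4. Of its 1359 bp, 836 bp were common to all 5, or 61.5%, the highest share of any member. The fifth was on 2L from 13071378 to 13076705, with 784 bp in common.

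The members with the smallest distance between outermost centres, among those with 1 interval a list, were all narrow. The first was also the narrowest member, 177 bp on X (13226213 to 13226389), with WOC across its whole width, Dsk2 across 155 bp, ROW 73 bp, Z4 51 bp and HP1c 49 bp, all of the HP1c bases being common to the 5. Its 5 centres lay within 4 bp. On 3R from 25100388 to 25100612 the centres lay within 11.5 bp, and on 3L from 16153848 to 16154137 within 14 bp. The ROW intervals in these 3 members were 73, 29 and 48 bp wide, far below the ROW median of 474 bp. The next 2 narrowest members, 196 bp on 3R (21868125 to 21868320) and 210 bp on Uextra, had no base common to all 5.

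At the other extreme, members with 1 interval a list could spread over kilobases. On 3R from 16881956 to 16887898 a ROW interval of 5943 bp and a Z4 interval of 5096 bp enclosed a Dsk2 interval of 33 bp (16885649 to 16885681), a WOC interval of 86 bp and an HP1c interval of 196 bp (16886347 to 16886542). The outermost centres there were 1753 bp apart, and HP1c shared no base with Dsk2 or WOC. On 2L from 8716130 to 8718318 the span was 1488 bp, with Z4 (148 bp) near one end and HP1c (342 bp) at the other. On 3R from 19001147 to 19003669 the span was 1208 bp. The member with the most intervals, 35, was on X from 7594193 to 7605031. It held 2 ROW intervals of 2424 and 7370 bp with 8 HP1c, 8 Dsk2, 9 WOC and 8 Z4 intervals. ROW covered 2956 of its 3342 HP1c bases. Next in number of intervals were 3R from 25103536 to 25119203, with 32, and the widest member, with 29.

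**Figure D4:**
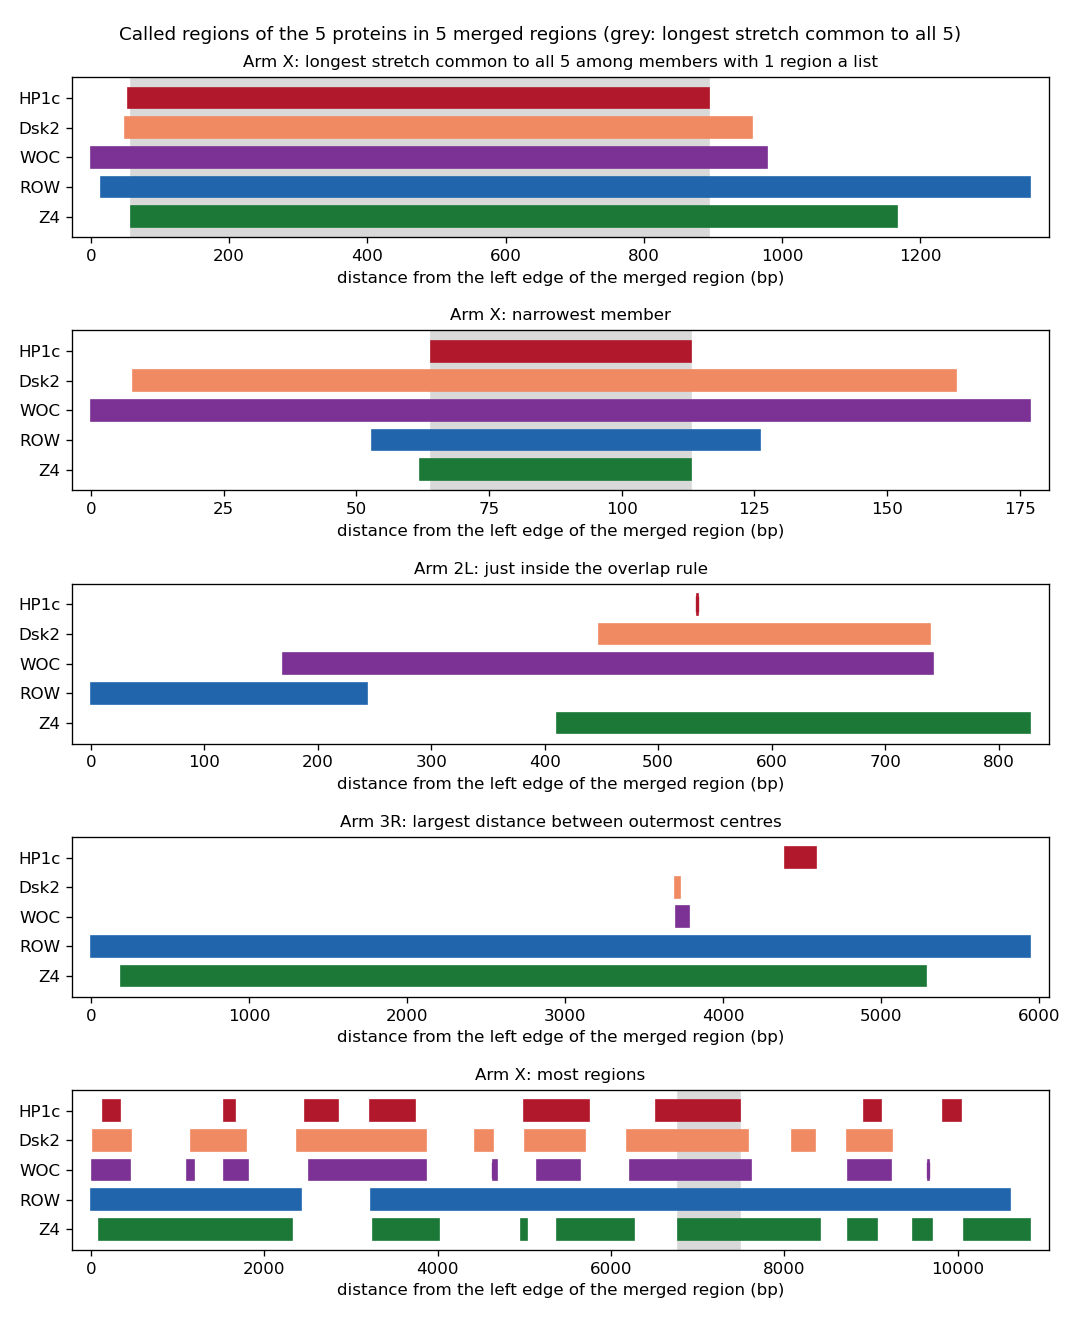
Intervals of each protein (rows) in 5 members, against distance in bp from the left edge. From top to bottom these are the X member of 1359 bp with 836 bp common to all 5 (grey), the narrowest member (177 bp), a 2L member with an HP1c interval of 1 bp, the 3R member with centres 1753 bp apart, and the X member with 35 intervals; intervals too narrow to see are drawn as ticks.

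Members were spread along the arms with some close groups. Neighbouring members on an arm were separated by a median of 46479 bp (interval of the median 39129 to 54435 bp), with quartiles of 11323 and 167239 bp. Stricter lists and 200 bp intervals, which leave fewer members, raised this median to between 67782 and 183487 bp. Of the 909 neighbouring pairs, 46 (5.06%) were within 1000 bp of each other, 130 (14.3%) within 5000 bp and 194 (21.3%) more than 200000 bp apart. A median of 7 other merged regions lay between neighbours, and in 98 pairs (10.8%) none did. The nearest merged region of any kind was a median of 449 bp away. It was a region of ROW alone for 239 members (25.95%), against 26.3% of all merged regions being of that kind, and of ROW with Z4 for 182 (19.8%, against 14.3%). It was another member for 91 (9.88%, against 7.06%).

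With members within 5000 bp of each other taken as a run, 681 stood alone, 93 runs held 2, 14 runs held 3 and 3 runs held 4. The 3 runs of 4 members were all on 3L, from 2575179 to 2592603 with member widths of 1628 to 3846 bp, from 6174683 to 6186930, and from 14748795 to 14754079, where the 4 members and the gaps between them took 5285 bp. The most isolated member on a large arm was on X from 387798 to 388229, with 1345927 bp to the next. It was small (432 bp) and had 73 bp common to all 5. The 2 members on Uextra, an artificial concatenation of unplaced sequence, were 12517599 bp apart, a distance without meaning on a chromosome.

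The arms held different shares of the members. 3R had 245 members (26.6%), 2R 208 (22.6%), 2L 166 (18.0%), 3L 164 (17.8%) and X 120 (13.0%, interval 10.9 to 15.4%). X held 19.1% of all merged regions, so that 4.83% of its merged regions were members (interval 4.02 to 5.74%). The corresponding share was 8.42% on 2R (7.36 to 9.59%) and 8.32% on 3R (7.35 to 9.38%). It was 7.24% on 2L (6.21 to 8.37%) and 6.35% on 3L (5.44 to 7.36%), with 7.06% over all arms. The intervals of X and 3L overlapped. The relatives without HP1c also had a low X share, 142 of 1299 (10.9%). Of the HP1c intervals on X, 31.9% lay in members, against 38.9% on 3L, 42.6% on 3R, 44.8% on 2L and 45.7% on 2R.

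Density and inner layout behaved differently across the large arms. Members per Mb numbered 9.85 on 2R, 8.79 on 3R, 7.23 on 2L, 6.70 on 3L and 5.36 on X. A common base was found in 49.2% of the X members, and the other large arms ranged from 48.2% on 3L to 51.2% on 2L. The median width was 1154.5 bp on X and between 1083 and 1193.5 bp on the other 4. The X values of width and of common bases thus lay within the range of the other 4 arms. The share of X merged regions that were members lay below it, with an interval that overlapped that of 3L.

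**Figure D5:**
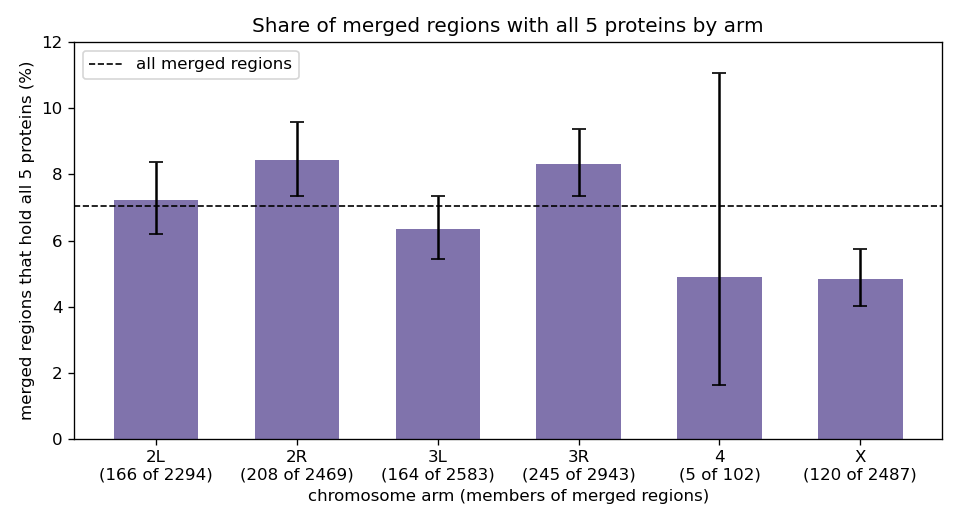
Percent of the merged regions of an arm that hold all 5 proteins, with exact 95% intervals as error bars and the 7.06% of all merged regions as a dashed line. X, at 4.83%, lies below 2L, 2R and 3R, and chromosome 4 has only 5 members of 102 merged regions.

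Outside the 5 large arms there were 18 members. Chromosome 4, a small autosome rich in heterochromatin, had 5 members among 102 merged regions (4.90%, interval 1.61 to 11.1%), and none of the 5 had HP1c and ROW sharing a base. In the 2 widest, from 226000 to 226894 and from 199591 to 200468, the order was ROW-Z4-HP1c-Dsk2-WOC. The sequences assigned to pericentric heterochromatin (the arms ending in Het) held 10 HP1c intervals, and all 10 were in members, 1 in each of 10 members: 4 on 3LHet, 3 on 2LHet, 2 on 3RHet and 1 on 2RHet. Over all arms 41.0% of HP1c intervals lay in members. The arms ending in Het had 87 merged regions, of which 10 were members, against 7.06% of all merged regions. Only 2 of these 10 members had a base common to all 5, both on 2LHet, where the common stretches were 20 and 254 bp. On 2LHet the widest of them ran from 31214 to 33556 and its neighbour from 34239 to 35409. Other examples were 3LHet from 2397389 to 2399253 and 3RHet from 1704985 to 1706338, with HP1c intervals of 95 and 45 bp. The members on 3LHet from 600686 to 601775 and from 1396112 to 1397123 had HP1c intervals of 70 and 111 bp, and that on 3RHet from 1823330 to 1824262 had one of 16 bp. Of the 3 members on 2LHet, the 2 with a common base held 424 and 254 bp of HP1c, and the third held 97 bp. On the unplaced sequences, U had 1 member among 20 merged regions (5%) and Uextra 2 among 54 (3.70%). These 3 members held 3 of the 22 HP1c intervals there. The widest of these, on U from 7544122 to 7545073, had 384 bp common to all 5. No member lay on the mitochondrial genome, which had 3 HP1c intervals. These counts are small, and the sources used here do not say how repeated sequence was treated in mapping.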

How the data were processed

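The files the authors deposited are 5 region lists, 1 per immunoprecipitated protein, with an arm, a start and an end as the only values. The design text says that peaks were called relative to input. The submitters' processing notes name the dm3 build with Bowtie 0.12.5, CASAVA 1.8 and FastQC 0.9.3. The sources used here name neither the peak caller nor its threshold.

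Some intervals start and end at the same position, so both ends were counted as part of an interval, and widths are end minus start plus 1. Intervals sharing at least 1 bp were chained across lists. A list's centre in a member is the mean position of the bases it covers, and 9 members had tied centres. Arm lengths were taken between the outermost deposited positions. Medians carry distribution-free binomial 95% intervals. Chaining and layout were checked on artificial lists with known answers. Named members were taken by rule: the longest common stretches, the widest and narrowest, those with most intervals, the smallest and largest spans of centres, the most isolated, those on small arms and those at the edge of the rule. Alternatives were other overlap minimums, joined gaps, stricter lists, fixed widths, the large arms alone and other centres. The members and these choices were made with earlier results of these data known. The annotation at hand is of release 6, not dm3, so no genes were assigned and no sequence was read. Python 3.11.15, NumPy 2.4.6, SciPy 1.17.1 and matplotlib 3.10.9 were used.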

Additional observations from a re-analysis of the deposited data

How the results depend on the processing

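The overlap rule was recomputed under 9 alternatives, and the ROW centre under 2 more. Leaving the end base out, or using the 5 large arms alone, kept every value within its interval. With at least 25 shared bases, 53.9% of the remaining members had a base common to all 5, HP1c and ROW shared a base in 63.1%, the median width was 1243 bp and neighbours were 58873 bp apart. With gaps of up to 100 bp joined, the first 2 shares were 44.6% and 54.2%. Stricter lists left fewer members, and a higher share of these had a common base. Intervals of at least 50 bp gave 593 members, 57.8%, 68.5%, 1353 bp and 67782 bp in the same order. The wider 50% of each list gave 297 members, 67.0%, 78.5%, 1821 bp and 148844 bp, with ROW outermost in 70.0%. Lists as long as the HP1c list gave 371 members, 66.8%, 79.5%, 1867 bp and 128087 bp, with ROW outermost in 70.4% and 9.70% of members on X. With 200 bp around each midpoint there were 339 members, 40.4%, 68.1%, 435 bp and 183487 bp, with ROW outermost in 70.5% and 95.0% staying 1 chain without ROW. The 434 members with 1 interval of each list gave 42.9%, 51.4%, 800.5 bp and 145769 bp, with ROW outermost in 78.3% and 96.3% staying 1 chain without ROW. Taking the centre between a list's outer edges put ROW outermost in 70.6%.

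The causes of these shifts were not tested, beyond the fewer intervals that stricter lists hold by construction. ROW stayed outermost in at least 70.0% in every setting. The share with HP1c and ROW sharing a base was less stable, from 51.4 to 79.5% around the main 58.5%. The other pairs were not recomputed, so whether HP1c with ROW stayed the lowest pair is unknown. No read depth or replicate was available, so the strength of a region could not be weighed. No paired analysis was possible because each protein had 1 library.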
